A study of Homo sapiens with 6 samples.

Results

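The genes described here handle iron in the cell: the receptors and channels that bring it in, the 2 ferritin chains that store it, the exporter, the 2 proteins that sense it and the enzyme that frees it from heme. They were chosen by name as TFRC, TFR2, STEAP3, SLC11A2, FTH1, FTL, SLC40A1, ACO1, IREB2 and HMOX1, and matched to the count files by the Ensembl identifiers that GENCODE 44 gives these symbols. All 10 were among the 19977 genes counted, and all 10 had the 10 counts over the 6 libraries required for testing, as did 16505 genes in all. The libraries were made from polyadenylated RNA of NCRM-1, a human induced pluripotent stem cell line of wild type genotype, grown as aggregates for 4 days in vertical wheel bioreactors after seeding as single cells with a ROCK inhibitor. One group of 3 libraries came from E8 medium with 10 mg/ml polyethylene glycol and heparin sodium salt at 0.1 µg/ml (PEG and HS), and the other group of 3 from E8 medium without these additives (E8 control), and on day 2, 50% of the medium was exchanged. The comparison asks which transcripts differed with the additives. The labels name 1 bioreactor letter for each medium, so medium and vessel cannot be told apart, and the p-values measure the spread between these samples only, which may be technical. The treatment protocol text of all 6 libraries describes the additives, also where the treatment is given as Control, and the treatment field was followed. Depth was 26991279 to 36185138 counts per library, and CPM below is the count scaled by library size and edgeR's TMM factors.

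Cells take up iron bound to transferrin, which is a component of E8. The transferrin receptor carries it into endosomes, a STEAP reductase converts it to the ferrous form, and the transporter DMT1 moves it into the cytosol, where it is used, stored in ferritin or exported through ferroportin. When iron is scarce, the iron regulatory proteins IRP1 and IRP2 bind a short RNA hairpin, the iron responsive element (IRE): in a 5′ UTR this blocks translation of the ferritin and ferroportin messages, and in the 3′ UTR of TFRC it protects the message from decay. RNA counts therefore read the second kind of control and not the first.

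The hairpins are shown because they are the element that the iron regulatory proteins are known to bind. GENCODE 44 transcripts were searched for a C, 5 bases, the loop CAGTGN and 5 bases, with both runs of 5 bases able to pair (G-U pairs allowed). Among the 10 genes, 4 held such a hairpin, each in a UTR of the canonical transcript. Of the 19916 annotated genes of the files, 2.15% held one in any transcript and 0.708% in a UTR of the canonical transcript. The pattern searched is that of the IRE, which these 4 messages are known to carry. Their matches were therefore fixed in advance and test nothing. Coordinates are those of GRCh38, each sequence reads 5′ to 3′ along the message, and capitals mark the loop.
TFRC, 3′ UTR, chr3:196050979-196051007, minus strand: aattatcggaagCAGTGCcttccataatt
TFRC, 3′ UTR, chr3:196050575-196050603, minus strand: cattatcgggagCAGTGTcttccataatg
TFRC, 3′ UTR, chr3:196050510-196050538, minus strand: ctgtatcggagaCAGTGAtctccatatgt
TFRC, 3′ UTR, chr3:196050463-196050491, minus strand: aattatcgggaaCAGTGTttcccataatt
FTH1, 5′ UTR, chr11:61967574-61967602, minus strand: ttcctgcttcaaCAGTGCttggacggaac
FTL, 5′ UTR, chr19:48965335-48965363, plus strand: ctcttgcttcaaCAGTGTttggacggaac
SLC40A1, 5′ UTR, chr2:189580661-189580689, minus strand: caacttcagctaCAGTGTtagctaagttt
SLC11A2, 3′ UTR, chr12:50988269-50988297, minus strand: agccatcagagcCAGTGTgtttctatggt
The last of these, in the message of DMT1, pairs at 4 of the 5 positions and was found only with 1 mismatch allowed, a looser rule that 14.6% of all genes meet and that also takes ACO1 and IREB2. A match is a description of the letters and not a measured binding site.

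Between media, the iron handling transcripts differed little. TFRC and ACO1 were higher in PEG and HS, FTL and STEAP3 were lower, and the other 6 were not called, which makes 4 of 10 called where 25.3% of all 16505 genes tested were called in this comparison. The called changes were between 7.35% and 12.6% in size. A gene was called where the p of the quasi-likelihood test of edgeR, adjusted by Benjamini-Hochberg over all genes tested, was under 0.05. The median log2 fold change of the 10 was 0.0043, and the median of their absolute log2 fold changes was 0.073, against 0.12 over all genes tested. For 5 of the 10, every PEG and HS library lay on the same side of all E8 control libraries, as it did for 39.3% of all genes tested. In bulk samples, fewer cells of a type and less RNA per cell cannot be told apart. With 1.2-fold as the change to exceed, edgeR called 0 of the 10, and 5.26% of all genes tested. For any change, 4 of the 10 had an unadjusted p under 0.05, as did 5945 of all 16505 genes tested. DESeq2 called 3 of the 10, and 20.6% of all genes tested.

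**Figure D1:**
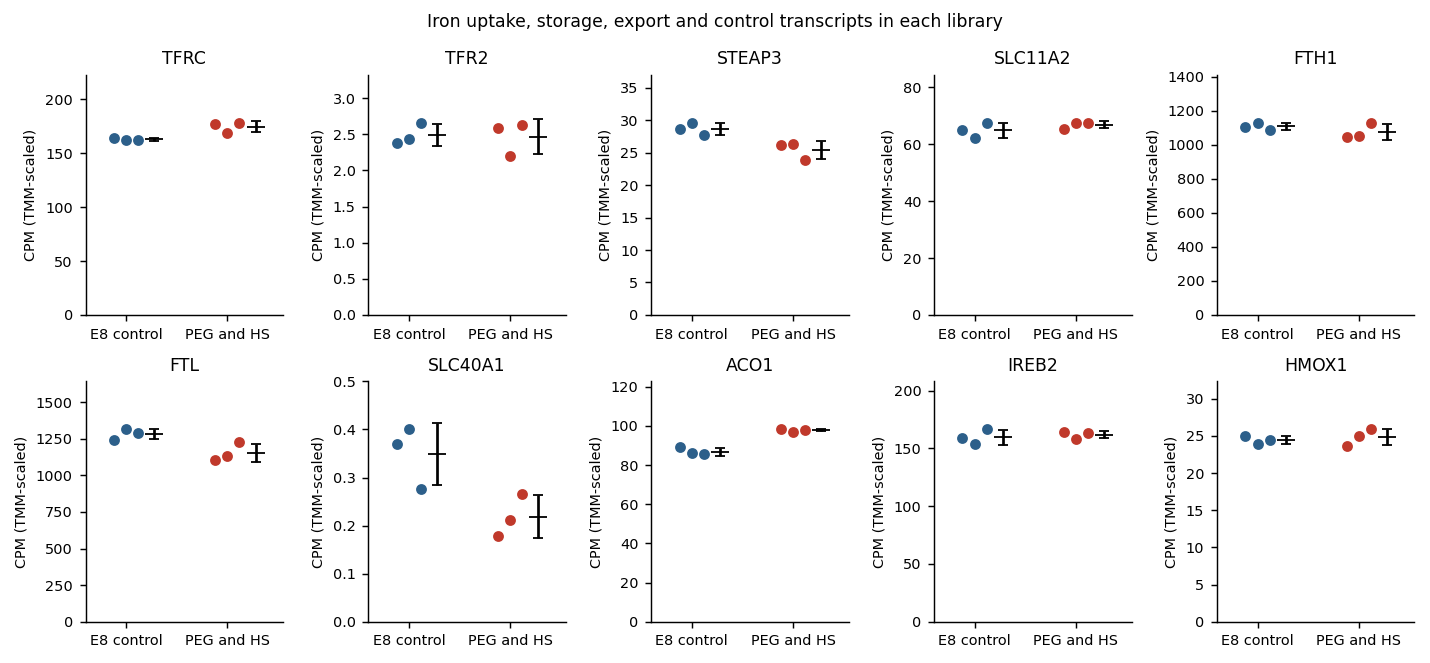
CPM of each of the 10 iron handling transcripts in each library (points, 3 for each medium), with the mean and SD beside the points and each axis starting at 0. ACO1 was higher in each PEG and HS library (97.1 to 98.2 CPM) than in each E8 control library (85.4 to 89.3 CPM), as was TFRC. FTL, STEAP3 and SLC40A1 were lower in each PEG and HS library, SLC40A1 on few counts and not called. The libraries of the other transcripts overlapped between media.

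Of the uptake genes, TFRC (ENSG00000072274, chromosome 3, 196012511 to 196082153), the transferrin receptor of nearly all dividing cells, was at 177.3, 168.6 and 178.5 CPM in PEG and HS replicates 1 to 3 and at 164.5, 162.0 and 162.5 CPM in the E8 control replicates. Each PEG and HS library was higher than each E8 control library. The ratio of PEG and HS to E8 control was 1.07 (95% confidence interval 1.03 to 1.12), with a log2 fold change of 0.10, SE 0.030 and adjusted p = 0.019. The call depended on 4 of the 6 libraries, since the adjusted p rose to 0.0792 without PEG and HS replicate 1, 0.0717 without PEG and HS replicate 3, 0.0621 without E8 control replicate 2 and 0.0507 without E8 control replicate 3. It was 0.00712 without PEG and HS replicate 2 and 0.0489 without E8 control replicate 1. Of the genes called in either direction, 94.9% changed by more than TFRC did. A lncRNA that is not in the count files overlaps TFRC on the opposite strand, and whether counting used strand is not given in the sources used here.

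STEAP3 (ENSG00000115107, chromosome 2, 119223831 to 119265652), the endosomal ferrireductase, was at 26.1, 26.4 and 23.8 CPM with the additives and at 28.6, 29.6 and 27.7 CPM without them. The libraries did not overlap, and PEG and HS was lower, with a ratio of 0.887 (95% confidence interval 0.820 to 0.959), a log2 fold change of -0.17, SE 0.053 and adjusted p = 0.0254. The lowest value was that of PEG and HS replicate 3, and without it the adjusted p was 0.113. It was 0.0540 without E8 control replicate 1, 0.0915 without E8 control replicate 2 and 0.0520 with DESeq2. STEAP3 also has an annotated antisense gene, STEAP3-AS1.

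SLC11A2 (ENSG00000110911, chromosome 12, 50979401 to 51028566), which encodes DMT1, was at 65.5, 67.6 and 67.5 CPM with the additives and at 64.9, 62.2 and 67.4 CPM without them. These libraries overlapped, and the ratio was 1.03 (95% confidence interval 0.9753 to 1.09, adjusted p = 0.446). TFR2 (ENSG00000106327, chromosome 7, 100620416 to 100642779), a second receptor known mainly from liver and red cell precursors, was at 2.58, 2.19 and 2.63 CPM with the additives and at 2.37, 2.43 and 2.66 CPM without them. It overlapped as well (ratio 0.993, adjusted p = 0.972), and with 477 counts in all 6 libraries its interval, 0.796 to 1.24, was wide. Along the endosomal route, then, TFRC was called higher, STEAP3 lower and SLC11A2 neither. STEAP2, another STEAP gene, named after its value was seen, was at 27.0 CPM with the additives and 28.2 CPM without them (means, n = 3). It was not called (edgeR adjusted p = 0.486).

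The ferritin messages were the most counted of the set. FTL (ENSG00000087086, chromosome 19, 48965309 to 48966879), the light chain that helps form the mineral core, was at 1103, 1132 and 1224 CPM with the additives and at 1241, 1313 and 1290 CPM without them. Each PEG and HS library lay under each E8 control library, and replicate 3 of PEG and HS was the nearest to them. The ratio was 0.900 (95% confidence interval 0.855 to 0.948), with a log2 fold change of -0.15, SE 0.035 and adjusted p = 0.00466, and FTL kept its call with each library left out.

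FTH1 (ENSG00000167996, chromosome 11, 61959718 to 61967634), the heavy chain with the ferroxidase site, was at 1049, 1052 and 1130 CPM with the additives and at 1105, 1131 and 1089 CPM without them. PEG and HS replicate 3 lay among the E8 control libraries and the other PEG and HS replicates lay under them. The ratio was 0.972 (95% confidence interval 0.929 to 1.02, adjusted p = 0.358), and without PEG and HS replicate 3 FTH1 was called lower (log2 fold change -0.078, adjusted p = 0.0429). Both messages have processed copies in the genome: 27.4% of the 31-base words of FTH1 transcripts occur in transcripts of 16 pseudogenes, and 33.5% of those of FTL in 6, none of which is in the count files. How reads that match several genes were counted is not given in the sources used here, so the levels of both chains are uncertain. BEST1, on the opposite strand of FTH1, had 7.52 ± 1.01 CPM (SD, n = 3) with the additives and 7.37 ± 0.818 CPM (SD, n = 3) without them.

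SLC40A1 (ENSG00000138449, chromosome 2, 189560590 to 189583758), which encodes ferroportin, the iron exporter, was the least counted. It had 6, 6 and 9 counts with the additives and 10, 13 and 10 without them, which is 0.178, 0.212 and 0.266 CPM against 0.371, 0.400 and 0.277 CPM. No PEG and HS library reached an E8 control library, but the difference was not called (ratio 0.635, 95% confidence interval 0.331 to 1.22, adjusted p = 0.316). At 54 counts in all, neither no change nor a fall to 0.331 of the E8 control level was outside the interval.

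**Figure D2:**
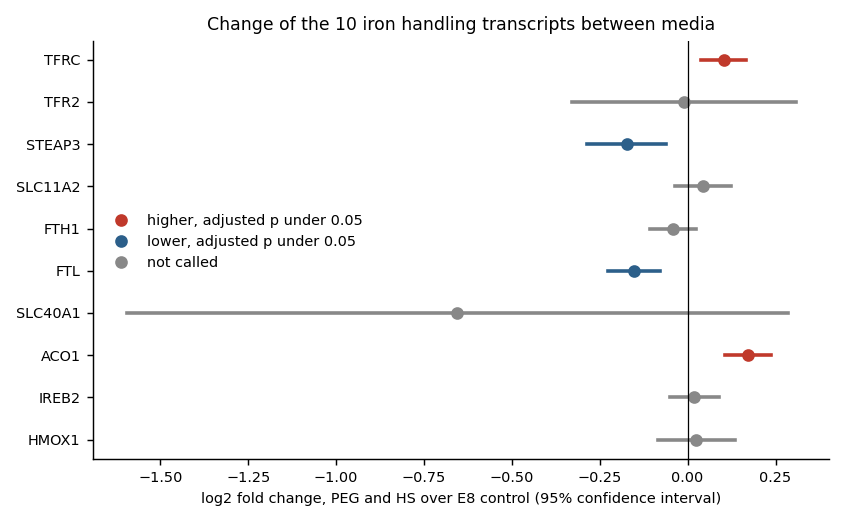
Log2 fold change of each iron handling transcript, PEG and HS over E8 control (points), with 95% confidence intervals from edgeR's quasi-likelihood fit (lines). The 4 called genes lie between -0.17 and 0.17, and the intervals of SLC40A1 and TFR2 are the widest.

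ACO1 (ENSG00000122729, chromosome 9, 32384603 to 32454769) encodes IRP1, which is an aconitase when it holds an iron-sulfur cluster and binds the IRE when it does not. It was at 98.2, 97.1 and 98.1 CPM with the additives and at 89.3, 86.0 and 85.4 CPM without them. The media were well apart relative to their spread, with 97.8 ± 0.620 CPM (SD, n = 3) against 86.9 ± 2.08 CPM (SD, n = 3). The ratio was 1.13 (95% confidence interval 1.08 to 1.18), with a log2 fold change of 0.17, SE 0.031 and adjusted p = 0.000717. With any one library left out the adjusted p was at most 0.00487.

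IREB2 (ENSG00000136381, chromosome 15, 78437431 to 78501453) encodes IRP2, which binds the same hairpin and is removed by the ligase subunit FBXL5 when iron is ample. It was at 164, 158 and 163 CPM with the additives and at 159, 154 and 166 CPM without them, with overlap. The ratio was 1.01 (95% confidence interval 0.966 to 1.06, adjusted p = 0.722).

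HMOX1 (ENSG00000100292, chromosome 22, 35380361 to 35394214), heme oxygenase 1, releases iron from heme and is a common target of oxidative stress signalling. Its levels were 23.69, 25.02 and 25.89 CPM with the additives and 25.06, 23.89 and 24.41 CPM without them, and the E8 control libraries lay inside the range of the others. The ratio was 1.02 (95% confidence interval 0.943 to 1.10, adjusted p = 0.774).

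Ratios of 2 transcripts within a library do not depend on depth or scaling, and 3 of them were compared: uptake to storage, the 2 ferritin chains, and the 2 iron regulatory proteins. Each is given as a ratio of CPM per kilobase of canonical transcript. TFRC to FTH1 was 0.0406, 0.0385 and 0.0379 with the additives and 0.0357, 0.0344 and 0.0358 without them, a difference of 0.14 on the log2 scale. FTH1 to FTL was 0.689, 0.672 and 0.668 with the additives and 0.645, 0.624 and 0.611 without them, a log2 difference of 0.11. IREB2 to ACO1 was 1.97, 1.92 and 1.95 with the additives and 2.09, 2.10 and 2.29 without them, a log2 difference of -0.15. In all 3 ratios the media were separate, and single genes were so for 39.3% of all genes tested. The exact two-sided permutation test gave p = 0.1 for each (0.1 also after adjustment over the 3), which is the smallest p that 3 libraries against 3 allow. Each ratio joins a gene called above (TFRC, FTL or ACO1) with one that was not (FTH1 or IREB2). The differences therefore restate those calls and are not separate support for them. For FTH1 to FTL, replicate 3 of PEG and HS, which had the highest CPM of both chains among the PEG and HS libraries, did not stand apart from the other PEG and HS replicates.

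**Figure D3:**
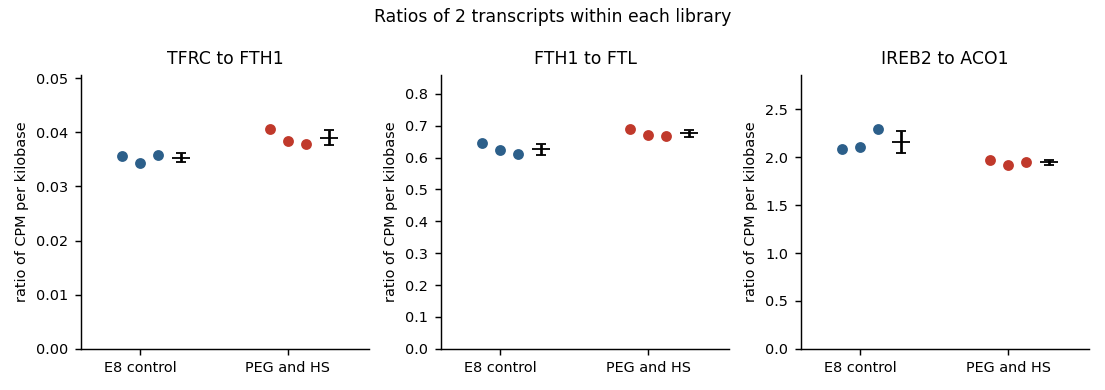
Ratio of CPM per kilobase of canonical transcript for TFRC to FTH1, FTH1 to FTL and IREB2 to ACO1 in each library (points), with the mean and SD for each medium and axes starting at 0. PEG and HS libraries lie above the E8 control libraries in the first and second ratios and below them in the third.

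Levels of different genes were compared per kilobase, with the union of each gene's annotated exons as its length, over all 6 libraries. FTL was highest at 1267 to 1508 CPM per kilobase, followed by FTH1 at 524 to 564. The other genes were far lower, in the order IREB2 (14.2 to 15.4 CPM per kilobase), ACO1 (11.3 to 13.0), HMOX1 (10.3 to 11.2), TFRC (9.32 to 10.3), SLC11A2 (6.29 to 6.84), STEAP3 (5.22 to 6.49), TFR2 (0.433 to 0.525) and SLC40A1 (0.0422 to 0.0949). Neighbours in this order did not overlap in their libraries, except HMOX1 with TFRC and SLC11A2 with STEAP3. The places between FTH1 and STEAP3 depend on the length used. The exon union of TFRC is 17376 bases long. With the 5012 bases of its canonical transcript TFRC took place 3, at 32.3 to 35.6 CPM per kilobase, above IREB2 at 24.3 to 26.3. By that length ACO1 moved from place 4 to 7, at 11.5 to 13.2 CPM per kilobase, below SLC11A2 (place 5, 15.05 to 16.36) and HMOX1 (place 6, 15.25 to 16.66), which overlapped each other. Ferritin messages remained the highest and TFR2 and SLC40A1 the lowest by either length.

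The other iron and heme genes were taken from 7 lists. Of 76 genes beside the 10, 71 were tested and 18 were called (25.4%, next to 25.3% of all genes tested), 12 of them higher and 6 lower in PEG and HS. Their median log2 fold change was 0.010, and the median absolute log2 fold change was 0.077.

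Among other genes of iron uptake, reduction and export, 3 of 13 tested were called (23.1%, where 25.3% of all genes tested were called), and the 3 were higher in PEG and HS (12.2% of all genes tested were called higher). SLC39A14 (ZIP14) and SLC39A8 (ZIP8) carry iron that is not bound to transferrin, along with zinc and manganese. SLC39A14 was at 328, 331 and 340 CPM with the additives and at 256, 252 and 255 CPM without them, a ratio of 1.31 (log2 fold change 0.39, SE 0.026, adjusted p = 2.73e-08). SLC39A8 was at 27.8, 28.1 and 28.2 CPM with the additives and at 18.1, 16.1 and 19.3 CPM without them, a ratio of 1.57 (log2 fold change 0.65, SE 0.061, adjusted p = 1.16e-06). Both ZIP genes were separate between media by several times the spread of either group. They were the only genes among the 71 called against a 1.2-fold change with edgeR (adjusted p = 0.000822 for SLC39A14 and 5.77e-05 for SLC39A8). That is 2.82% of the 71, under the 5.26% of all genes tested that were called so. SLC46A1, the intestinal folate carrier that has also been described as a heme importer, was at 14.4, 15.8 and 17.9 CPM with the additives and at 13.9, 11.6 and 12.9 CPM without them (ratio 1.26, adjusted p = 0.00987, and 0.0543 without PEG and HS replicate 3). The median log2 fold change of this list was -0.042, and the other 10 genes tested were not called. TF, the gene of transferrin itself, was at 0.599 ± 0.0704 CPM (SD, n = 3) with the additives and 0.621 ± 0.325 CPM (SD, n = 3) without them, and was named after its value was seen.

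Of the genes of heme transport and breakdown, 5 of 9 tested were called (55.6%, beside 25.3% of all genes tested), 2 higher and 3 lower in PEG and HS. BLVRA and BLVRB, the biliverdin reductases that act after heme oxygenase, were lower in PEG and HS. BLVRA was at 10.3, 11.8 and 10.9 CPM with the additives and at 13.9, 14.7 and 13.9 CPM without them (ratio 0.776, adjusted p = 0.00101). BLVRB was at 13.7, 13.8 and 15.1 CPM against 17.9, 19.2 and 18.4 CPM (ratio 0.769, adjusted p = 0.000304). Thus both reductases fell while HMOX1 and HMOX2, which act before them, were not called (HMOX2 adjusted p = 0.314). ABCG2, a porphyrin and drug exporter, was higher at 2.80 to 4.05 CPM against 1.63 to 2.74 CPM (ratio 1.49, adjusted p = 0.0368), and lost its call without PEG and HS replicate 1 (adjusted p = 0.0702) or 3 (0.177) and without E8 control replicate 1 (0.136) or 3 (0.0757). The remaining called pair, named after their values were seen, encode related carriers and were called in opposite directions: FLVCR1, described as a heme exporter and choline carrier, was higher (205 ± 5.14 against 164 ± 4.64 CPM, SD, n = 3, adjusted p = 1.2e-06 with edgeR), and FLVCR2 was lower (7.21 ± 0.475 against 9.13 ± 0.495 CPM, SD, n = 3, adjusted p = 0.00694 with edgeR). PGRMC1, the most counted of this list, was at 261.2 CPM with the additives and 260.7 CPM without them (means, n = 3) and was not called (edgeR adjusted p = 0.954).

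**Figure D4:**
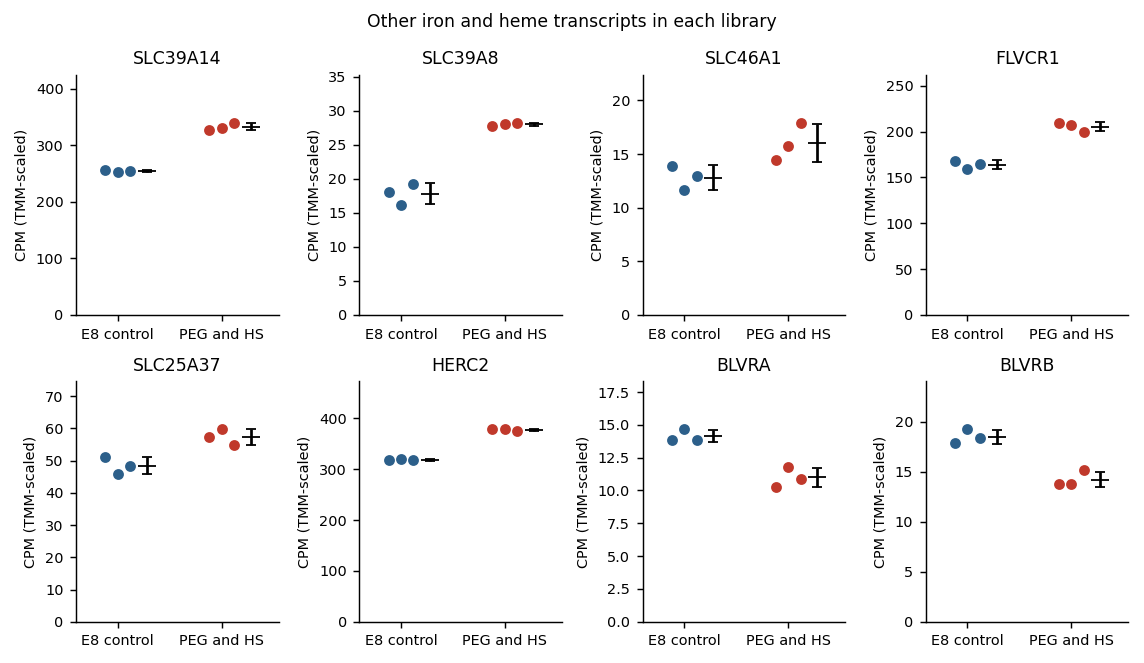
CPM of 8 other iron and heme transcripts in each library (points, 3 for each medium), with the mean and SD beside them and axes starting at 0. The importers SLC39A14 and SLC39A8, with SLC46A1, FLVCR1, SLC25A37 and HERC2, are higher in each PEG and HS library, and BLVRA and BLVRB lower.

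In mitochondria, where iron enters heme and iron-sulfur clusters, 3 of 18 genes tested were called (16.7%, under the 25.3% of all genes tested), and these 3 were higher in PEG and HS. SLC25A37 (mitoferrin 1), an iron importer of the inner membrane, was at 57.2, 59.7 and 54.7 CPM with the additives and at 51.1, 45.8 and 48.2 CPM without them (ratio 1.18, adjusted p = 0.00103). NFS1, the cysteine desulfurase that supplies sulfur to the clusters, had a ratio of 1.14 (adjusted p = 0.0170) and was not called without PEG and HS replicate 1 or 2 or E8 control replicate 2 (0.0567 to 0.0712) or with DESeq2 (0.0504). HSPA9, a mitochondrial chaperone, had a ratio of 1.07 (adjusted p = 0.00999, and 0.0544 without E8 control replicate 1). ISCU, the scaffold on which clusters are built, was named after its value was seen and was not called (adjusted p = 0.958). None of the 9 heme synthesis genes was called with edgeR, limma-voom or DESeq2, and none had an unadjusted p under 0.05 with edgeR (0 of 9). Over all genes tested, 5945 of 16505 had an unadjusted p under 0.05 with edgeR. UROD, the most counted of them, was at 52.4 ± 1.18 CPM with the additives and 51.0 ± 0.465 CPM without them (SD, n = 3).

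Of the 9 genes tested for iron sensing, iron chaperones and ferritin turnover, HERC2 was called higher and NUBP1 lower (22.2% called, beside 25.3% of all genes tested). HERC2, a ubiquitin ligase that has the ferritin receptor NCOA4 among its substrates, was at 378, 378 and 375 CPM with the additives and at 319, 321 and 317 CPM without them (ratio 1.18, adjusted p = 2.52e-06), and shares 25.3% of the 31-base words of its transcripts with other genes, the pseudogene HERC2P9 sharing the most. NUBP1, a scaffold of cytosolic iron-sulfur cluster assembly, had a ratio of 0.870 (adjusted p = 0.0203), which rose to 0.103 without PEG and HS replicate 1, 0.0627 without E8 control replicate 2 and 0.0804 without E8 control replicate 3. NCOA4, FBXL5 and the chaperones PCBP1 and PCBP2 were not called (adjusted p = 0.207, 0.203, 0.820 and 0.195), of which all but PCBP2, the most counted of the list, were named after their values were seen.

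Of the 8 genes tested for the hepcidin axis, which sets iron export in the body, 3 were called (37.5%, beside 25.3% of all genes tested). BMP6, the ligand that induces hepcidin in liver, was lower at 3.07 ± 0.384 against 3.98 ± 0.0808 CPM (SD, n = 3, edgeR adjusted p = 0.0464). Its call was lost with DESeq2 (0.130), with library size alone as the scaling (0.05002) and without PEG and HS replicate 1 (0.175) or 2 (0.106) or any E8 control replicate (0.0852 to 0.0978). NEO1, the most counted of the list and a partner of hemojuvelin, had a ratio of 0.913 (adjusted p = 0.00501). Hemojuvelin (HJV), which the rule for naming genes leaves out for its low level, had 7, 10 and 8 counts with the additives and 2, 2 and 3 without them (adjusted p = 0.0355). DESeq2 called 1 of the 8, NEO1, and 20.6% of all genes tested. HAMP, the gene of hepcidin, had 1 count in each medium.

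Among 6 other transcripts with a known or proposed IRE, EPAS1 and CDC14A were called higher (33.3%, where 25.3% of all genes tested were called and 12.2% called higher). EPAS1, which encodes HIF2A, was at 4.95, 5.06 and 5.02 CPM with the additives and at 3.97, 4.00 and 4.10 CPM without them (ratio 1.24, adjusted p = 0.0341). The libraries of each medium lay close together, but the call was lost with any one library left out (adjusted p between 0.0618 and 0.0875) and with DESeq2 (0.143). CDC14A, a phosphatase with a hairpin in its 3′ UTR by the same search, had a log2 fold change of 0.26 (adjusted p = 0.00953). PFN2, the most counted of these, had a ratio of 1.06 and was not called (adjusted p = 0.0519, and 0.0232 without E8 control replicate 3).

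**Figure D5:**
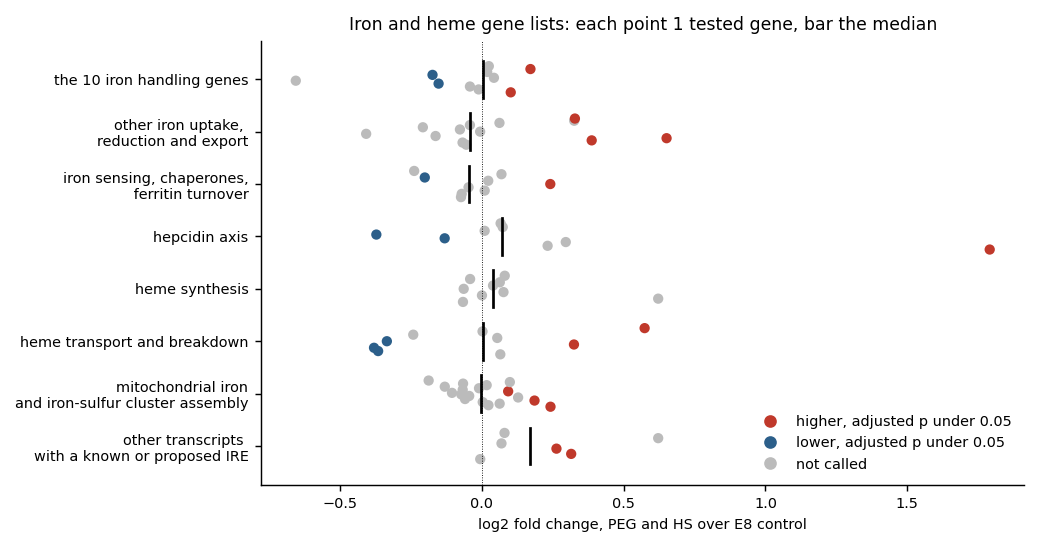
Log2 fold change of each tested gene, PEG and HS over E8 control, in the 10 iron handling genes and in the 7 further lists (each point 1 gene, ALAS2 in 2 lists), with a bar at each list's median. Called genes are coloured by direction, and the medians lie between -0.046 and 0.17, with HJV, at 1.79, the point farthest from 0.

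Markers were read in the same libraries. The 10 genes of undifferentiated pluripotent cells summed to 10329 to 10518 CPM with the additives and 10278 to 10428 CPM without them. Markers of the labelled cell type were therefore abundant in both media. The near sums cover opposite changes. Of the 10, 5 were called higher, among them NANOG (185 against 126 CPM, means, n = 3), and 3 lower, among them PODXL (1403 against 1868 CPM). For this and the marker counts below, 25.3% of all genes tested were called, 12.2% higher and 13.1% lower. Neuroectoderm markers moved with the medium: all 6 were called lower in PEG and HS, and they summed to 35.8 to 39.9 CPM against 133 to 137 CPM. The largest part of that sum was OTX2, at 18.6 CPM with the additives and 79.4 CPM without them (means, n = 3). SOX1, LHX5 and OTX2 had already been reported as lower by the paper from these data. The part of these 6 markers in the iron results was not tested. Markers of red cell precursors, the main users of iron in the body, were at or near 0. Of 11 erythroid markers, all but TFR2 lay under 1 CPM in every library, HBB and HBG1 had no count, and 1 was called with edgeR and not with DESeq2, HBA2, with 5, 4 and 6 counts in E8 control and 0 in PEG and HS, whose near copy HBA1 had 10, 6 and 10 counts with the additives and 4, 9 and 4 without them. Of 9 hepatic and yolk sac markers none was called with edgeR or DESeq2 (1, APOA1, had an unadjusted p under 0.05), 8 lay under 1 CPM in every library and they summed to 2.97 to 3.17 CPM with the additives and 3.33 to 4.63 CPM without them. The monocyte and macrophage markers summed to 1.27 to 2.11 and 1.54 to 1.93 CPM, with CD163 at 0, and none was called with edgeR or DESeq2 or had an unadjusted p under 0.05 (0 of 3 tested). Those of mesoderm summed to 5.47 to 5.63 CPM against 5.97 to 7.34 CPM, with 1 of 5, TBX6, called lower. MIXL1 of the same list went the other way and was not called (1.95 against 1.42 CPM, means, n = 3, edgeR adjusted p = 0.122). With edgeR, 2 of these 5 had an unadjusted p under 0.05. Those of definitive endoderm summed to 3.44 to 3.96 CPM against 4.71 to 5.12 CPM, with none called by edgeR or DESeq2 of the 4 tested (1, FOXA2, had an unadjusted p under 0.05).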

How the data were processed

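The authors isolated RNA from NCRM-1 aggregates, enriched polyadenylated RNA, prepared stranded libraries, trimmed reads with Trim Galore 0.6.7 and mapped them to GRCh38 with STAR 2.6.1 inside an nf-core pipeline. They deposited raw counts per Ensembl gene, one library per file. The counting tool, its strand setting, its treatment of multi-mapping reads and the annotation release are not given in the sources used here. Of 19977 identifiers, 19916 matched GENCODE 44, which supplied symbols, coordinates, lengths and sequences.

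Libraries were grouped by the treatment label. Genes with at least 10 counts over the 6 libraries were normalized with TMM and tested with edgeR 4.0.16 in R 4.3.3 (glmQLFit, glmQLFTest, no covariate), Benjamini-Hochberg adjusted over the genes tested. SE was derived from the log2 fold change and F, and intervals use the test's degrees of freedom. Ratios were tested by exact permutation. Alternatives were DESeq2 1.42.0, limma-voom (limma 3.58.1), 2 other normalizations, library size alone, 3 other filters, a block for the replicate number, leaving out each library, a test against a 1.2-fold change, other lengths and other hairpin rules. In simulated counts for this comparison (16405 genes, 200 changed), edgeR recovered 72% of 1.2-fold and 96% of 1.5-fold changes. Of its calls, 6.6% were false. The changed genes were drawn from well counted genes, with the same spread for every gene. Recovery of smaller changes, such as those of the 4 called members, or at low counts, such as those of SLC40A1, was not simulated.

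The members and lists were chosen with earlier results of these data known. Genes named beside the 10 are, for each list, up to 3 called genes with the largest change and at least 1 CPM, and the most counted gene; exceptions are stated. Counts of replicate pairs differed beyond Poisson noise (chi-square 2.61 to 3.60 times its degrees of freedom), and all 6 libraries were kept as separate samples.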

Additional observations from a re-analysis of the deposited data

How the results depend on the processing

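Of the 10 iron handling genes, 4 were called. The count was 3 with DESeq2 and 4 with limma-voom and with each other normalization, each other filter and the replicate block, between 2 (without E8 control replicate 2) and 4 with each library left out, and 0 when tested against a 1.2-fold change. The wider iron and heme genes gave 18 called, and 2 against a 1.2-fold change. They gave 14 to 19 under the other tests, normalizations, filters and the replicate block, and 12 to 16 with each library left out. Of all genes tested, 25.3% were called (4173). That share was 20.6% to 29.6% under the other tests, normalizations, filters and the replicate block. It was 19% to 22.5% with each library left out, and 5.26% (868) against a 1.2-fold change. The 4 called genes kept their direction under all 16 alternatives. Genes near no change turned sign: with each library left out, log2 fold changes ran from -0.058 to 0.062 for TFR2 (above 0 without PEG and HS replicate 2, and at 0.042 without E8 control replicate 3), -0.0096 to 0.051 for IREB2 (below 0 without E8 control replicate 2), -0.0063 to 0.060 for HMOX1 (below 0 without PEG and HS replicate 3) and -0.0088 to 0.015 for PGRMC1 (below 0 in 3 of the 6), which was also below 0 with upper-quartile normalization (-0.0078), filterByExpr (-0.0035) and 10 counts in every library of a medium (-0.0036). The ratios kept their direction with each library left out; raw counts and the replicate block give the same differences by arithmetic and test nothing here. Same-numbered libraries of the media did not deviate together (r 0.0194 to 0.0293 across genes), so the numbers were not taken as pairs. With the replicate block 4 of the 10 were called, the replicate block gave 4444 calls over all genes, BMP6 lost its call (adjusted p = 0.0501) and PFN2 gained one (0.0284). TFRC ranked 6 by exon union and 3 by the longest coding transcript or by the canonical transcript, the last chosen after seeing the data, and by both of these lengths ACO1 moved from 4 to 7, SLC11A2 from 7 to 5, HMOX1 from 5 to 6 and IREB2 from 3 to 4. Hairpins were found in 4 of the 10, in 2 with Watson-Crick pairs only and in 7 with 1 mismatch allowed. Depth limited SLC40A1, TFR2 and HJV, whose intervals were wide, and filterByExpr dropped SLC40A1.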
